A study of Homo sapiens with 4 samples.

Results

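The AKR1 genes encode aldo-keto reductases, cytosolic enzymes that reduce aldehydes and ketones with NADPH. The 6 genes described here are AKR1A1, AKR1B1, AKR1B10, AKR1C1, AKR1C2 and AKR1C3, taken by symbol from a deposited table of 20804 genes. They were chosen by family name with their FPKM values in both groups in view, so their differences are given as a description, without a test. RNA of MDA-MB-231 cells was sequenced in 4 libraries. MDA-MB-231 is a widely used line of mesenchymal character that came from a triple-negative tumour of the breast. The tested cells have the labelled genotype miR-3662-KO (KO, 2 libraries), a knockout of the microRNA miR-3662, and the cells they are set against have the labelled genotype WT (2 libraries). The labels name no other allele, treatment or time, and both groups are the same cell line. The title of the series names CRISPR interference and activation, and the design text names sorting by activity of the microRNA, so what KO stands for is uncertain. The labels name neither the clone nor the culture behind a library, and the p-values below measure only the spread between these libraries, which may be technical.

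AKR1 enzymes divide by substrate. AKR1A1, AKR1B1 and AKR1B10 reduce sugars, lipid aldehydes and retinaldehyde, whereas AKR1C1, AKR1C2 and AKR1C3 act on steroids and prostaglandins and so set how much active hormone reaches a receptor. Several of these genes are known targets of NRF2, the transcription factor encoded by NFE2L2, which is held low by KEAP1 and switches on detoxifying genes when cells meet electrophiles. High AKR1C and AKR1B10 expression is a known feature of tumours with an active NRF2 pathway.

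A microRNA lowers the level of transcripts whose 3′ UTR pairs with its seed, bases 2 to 8. The mature strand of miR-3662 is shown because its seed defines the sites sought in the AKR1 transcripts. It lies at chr6:134979355-134979378 on the minus strand of GRCh38.p14 (RefSeq), is 24 bases long, and is printed with the seed in capitals:
miR-3662: gAAAAUGAugaguagugacugaug
The microRNA is not listed in the expression table, so the knockout was not checked by its own level. For each gene the longest 3′ UTR in GENCODE 29 was searched for TCATTTT, the letters that pair with the seed. The sites are printed with their flanking bases and the match in capitals:
AKR1B1, UTR position 52: gtttcttgccTCATTTTtttccttgca
AKR1C1, UTR position 179: ttttgtttttTCATTTTgaaaaaatta
AKR1C1, UTR position 1190: gacatgatttTCATTTTagaaaacact
AKR1C2, UTR position 178: attttgttttTCATTTTgaaaaaatta
AKR1C3, UTR position 170: taaatttttaTCATTTTgaaataa
The match was absent from the 3′ UTRs of AKR1A1 (564 bases) and AKR1B10 (319 bases). AKR1C1 held 2 matches in 5541 bases, and 74.2% of genes with a 3′ UTR of like length held at least 1. For AKR1C2, with 2596 bases, that share was 51.1%. The shorter 3′ UTRs of AKR1B1 (378 bases) and AKR1C3 (183 bases) held 1 match each, against 7.66% and 5.02% of genes of like length. Over all 19113 genes with an annotated 3′ UTR, 29.7% held the match. AKR1B10, without a match, and AKR1C3, with one, both stood higher in KO, and whether any of these matches is used was not measured.

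The steroid-reducing genes lie together on chromosome 10, and their upstream sequences are shown because these genes moved together. Each is the 250 bases before the start site that RefSeq's promoter table gives (GRCh38.p14), read on the gene's own strand. They are AKR1C1 (chr10:4963165-4963414, plus), AKR1C2 (chr10:5003858-5004107, minus, a start site within the annotated gene) and AKR1C3 (chr10:5048531-5048780, plus). Capitals mark the longest run of letters shared by all 3. The promoters were chosen for printing, and the run was sought, after the values were seen. A first search that reached past the start site gave a different shared run across it, which is not printed:
AKR1C1: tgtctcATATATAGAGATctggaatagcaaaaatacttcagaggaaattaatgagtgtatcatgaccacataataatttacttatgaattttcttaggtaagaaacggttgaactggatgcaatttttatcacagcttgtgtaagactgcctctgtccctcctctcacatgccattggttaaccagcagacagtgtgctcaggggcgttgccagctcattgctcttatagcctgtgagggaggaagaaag
AKR1C2: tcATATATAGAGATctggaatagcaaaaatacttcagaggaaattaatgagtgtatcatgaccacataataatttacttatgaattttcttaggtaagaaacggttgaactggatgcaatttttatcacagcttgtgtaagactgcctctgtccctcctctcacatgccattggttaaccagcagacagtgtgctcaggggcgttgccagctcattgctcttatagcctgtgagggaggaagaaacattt
AKR1C3: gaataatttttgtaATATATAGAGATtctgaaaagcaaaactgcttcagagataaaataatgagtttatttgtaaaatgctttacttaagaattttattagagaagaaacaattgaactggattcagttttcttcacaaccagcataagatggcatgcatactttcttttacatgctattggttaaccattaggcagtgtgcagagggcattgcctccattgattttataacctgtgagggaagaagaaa
The AKR1C1 and AKR1C2 windows were 99.6% identical over their aligned bases, and AKR1C3 was 76.8% identical to AKR1C1 and 77.2% to AKR1C2. The shared run of 12 bases was present in 5 of 35116 promoters of the table (0.0142%). These 5 include the 3 printed here, from which the run was picked. A role of the run was not tested. In the 300-base windows of AKR1A1, AKR1B1 and the AKR1C genes, on both strands, there was no match to TGACNNNGC, the core of the element that NRF2 binds, which 13.3% of all promoters held. There was likewise no match to TGANTCA, the AP-1 site (7.71% of promoters), which can overlap the first, or to TTCATTCA, the site of the repressor HBP1 (1.65% of promoters). These windows reach no farther than the 300 bases around the start site.

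Before the values of single genes, 1 property of the family limits them. The coding sequences of AKR1C1 and AKR1C2 were 98.0% identical, those of AKR1C1 and AKR1C3 91.8%, those of AKR1C2 and AKR1C3 91.2%, and those of AKR1B1 and AKR1B10 77.1%, whereas all other pairs of members were 61.0% to 66.2% identical. Of the 50-base stretches of the coding sequence, 57.1% for AKR1C2, 54.3% for AKR1C1, 28.5% for AKR1B10 and 23.0% for AKR1C3 also occurred in a transcript of another gene. The share was 7.2% for AKR1B1, through processed pseudogenes, and 0.0% for AKR1A1. The labels do not give the read length, and for 100-base stretches the shares were 26.4% for AKR1C2, 20.7% for AKR1C1 and 9.8% for AKR1C3. They were 3.5% for AKR1B10 and 0.0% for AKR1B1 and AKR1A1. The sources used here do not say how the authors divided such reads, so the split among the AKR1C genes is uncertain, and between AKR1C1 and AKR1C2 most of all. FPKM divides by transcript length, and the AKR1C transcripts differ in length, so their summed FPKM also depends on that split.

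All 6 members stood higher in both KO libraries than in both WT libraries. Both KO values lay above both WT values for 39.3% of all tested genes. The levels are FPKM (fragments scaled by transcript length and by the number of fragments mapped), and fold changes are KO minus WT on the log2(FPKM + 1) scale, which makes the change of low genes look smaller than it is. A limma fit over the 11786 genes that reached 1 FPKM in 2 or more libraries, with Benjamini-Hochberg adjustment, called 16.2% of genes higher in KO (1906 genes) and 10.8% lower (1278) at an adjusted p under 0.05. AKR1C2 did not pass that filter, and AKR1C1 and AKR1B10 passed it only through the KO libraries. The 5 members that passed were all called higher, a count that the choice of members fixed. In such bulk samples fewer cells of a type and less RNA per cell cannot be told apart.

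AKR1A1 and AKR1B1 are the broadly expressed members. AKR1B1 encodes aldose reductase, which turns glucose into sorbitol in the first step of the polyol pathway (chr7:134442350-134459239, minus strand, GRCh38.p14). It had 269.05 and 289.79 FPKM in KO, against 112.60 and 116.46 FPKM in WT. The KO values were more than double the WT values, and replicates lay close together. Its mean was 279.4 ± 14.7 FPKM in KO and 114.5 ± 2.73 FPKM in WT (SD, n = 2 each), a ratio of 2.44 and a log2 fold change of 1.28 ± 0.10 (SE). AKR1A1 encodes aldehyde reductase, which also converts glucuronate to gulonate (chr1:45550826-45570049, plus strand). It had 85.15 and 82.33 FPKM in KO, against 50.84 and 55.31 FPKM in WT. This was the smallest ratio among the members with a ratio, 1.58, with a log2 fold change of 0.65 ± 0.11.

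AKR1B10, a relative of aldose reductase that reduces retinaldehyde and lipid aldehydes with high affinity, lies in the same cluster of chromosome 7 (chr7:134527567-134541412, plus strand). It had 1.63 and 4.62 FPKM in KO, against 0.04 and 0.03 FPKM in WT. It was thus close to 0 in both WT libraries and at a low level in KO, where replicate 2 held 2.83 times the value of replicate 1. Its log2 fold change was 1.89 ± 0.31. Without KO replicate 2 it was 1.35 and without KO replicate 1 it was 2.44, so its size rests on which KO library is read. No ratio is given, since the WT values carry a single significant digit.

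AKR1C3 reduces androstenedione to testosterone and prostaglandin D2 to a form of prostaglandin F2, and is the most studied AKR1C enzyme in hormone-dependent cancers (chr10:5048781-5107686, plus strand). It had 18.14 and 24.94 FPKM in KO, against 1.49 and 2.72 FPKM in WT. The lower KO value was 6.67 times the higher WT value. Its mean was 21.5 ± 4.81 FPKM in KO and 2.10 ± 0.87 FPKM in WT, a ratio of 10.2 and a log2 fold change of 2.87 ± 0.23. Counted from the highest log2 fold change down, it ranked 4 among the 11786 tested genes.

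AKR1C1, which inactivates progesterone, had 4.14 and 8.21 FPKM in KO, against 0.34 and 0.33 FPKM in WT (chr10:4963415-4983283, plus strand). The WT values were nearly equal, whereas KO replicate 2 held 1.98 times the value of KO replicate 1. The ratio of means was 18.4 and the log2 fold change 2.37 ± 0.26, rank 13. AKR1C2, which inactivates dihydrotestosterone, was the lowest of the AKR1C genes (chr10:4987775-5018000, minus strand). It had 0.54 and 0.85 FPKM in KO, against 0.02 and 0.14 FPKM in WT, a log2 difference of 0.65 that was outside the fit. With a pseudocount of 0.1 FPKM in place of 1, the log2 fold change was 4.40 for AKR1B10, 3.77 for AKR1C1, 2.20 for AKR1C2 and 3.34 for AKR1C3.

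**Figure D1:**
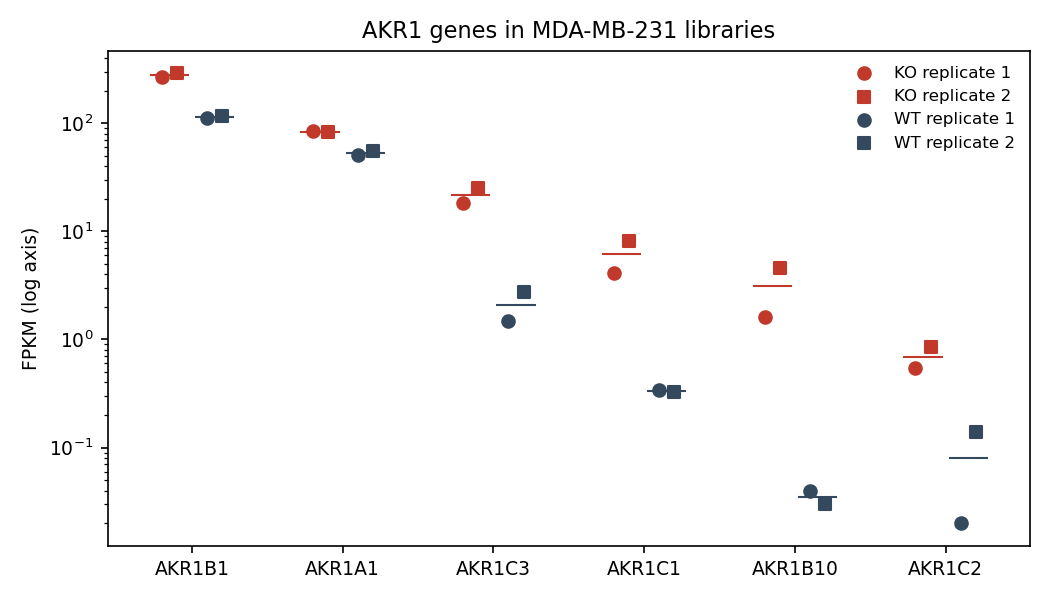
FPKM of the 6 AKR1 genes in each library on a log axis, with KO in red to the left and WT in dark blue to the right of each gene, circles for replicate 1, squares for replicate 2 and lines for group means. The KO points of every gene lie above its WT points, by the smallest ratio of means, 1.58, for AKR1A1 and with the widest KO spread, 2.83 between replicates, for AKR1B10.

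FPKM is per transcript length, so levels can also be set against each other. In both groups the order ran from AKR1B1 through AKR1A1 and AKR1C3 to AKR1C1, and these neighbours did not overlap within a group. In KO, AKR1C1 (4.14 and 8.21 FPKM) overlapped AKR1B10 (1.63 and 4.62 FPKM), and AKR1C2 was lowest. In WT, AKR1B10 and AKR1C2 overlapped at 0.02 to 0.14 FPKM. The 6 genes summed to 378.65 and 410.74 FPKM in KO, against 165.33 and 174.99 FPKM in WT, a ratio of 2.32. AKR1B1 made up 71.1% and 70.6% of that sum in KO, against 68.1% and 66.5% in WT. The AKR1C genes took 6.03% and 8.28% of it in KO, against 1.12% and 1.82% in WT.

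The summed AKR1C level was 22.82 and 34.00 FPKM in KO, against 1.85 and 3.19 FPKM in WT. Its mean was 28.4 ± 7.91 FPKM in KO and 2.52 ± 0.95 FPKM in WT, a ratio of 11.3. AKR1C3 made up 79.5% and 73.3% of the sum in KO, against 80.5% and 85.3% in WT. AKR1C1 made up 18.1% and 24.2% in KO, against 18.4% and 10.3% in WT. AKR1C3 had most of the AKR1C level in all 4 libraries. The AKR1C1 shares overlapped between the groups, and both AKR1C3 shares were lower in KO.

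**Figure D2:**
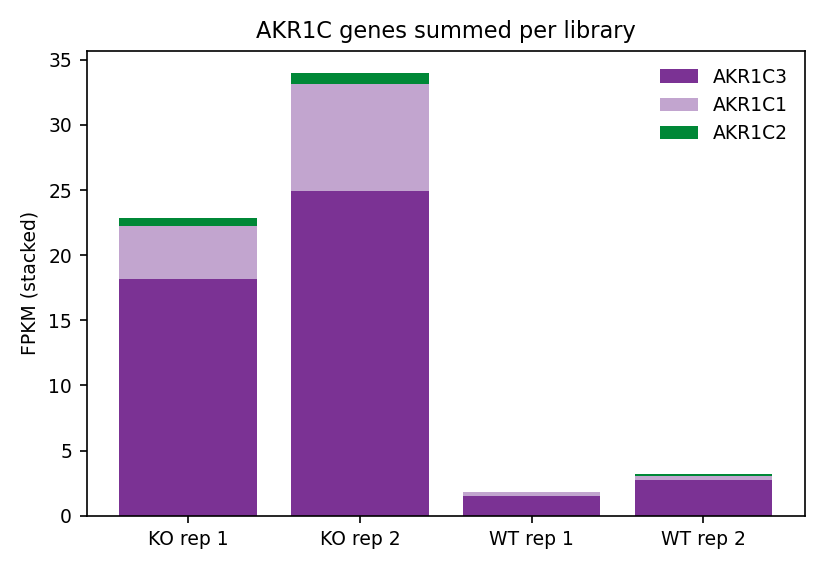
FPKM of AKR1C3, AKR1C1 and AKR1C2 stacked for each library, with the 2 KO libraries left of the 2 WT libraries. The stacks reach 22.82 and 34.00 FPKM in KO, against 1.85 and 3.19 FPKM in WT, and AKR1C3 fills at least 73.3% of each.

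The KO libraries were not alike for these genes. KO replicate 2 exceeded KO replicate 1 by 1.10 on the log2(FPKM + 1) scale for AKR1B10, 0.84 for AKR1C1, 0.44 for AKR1C3, 0.26 for AKR1C2 and 0.11 for AKR1B1. For AKR1A1 the same difference was -0.05. Over all tested genes the median of that difference was 0.01, and 52.2% were higher in KO replicate 2. Within WT the widest difference was that of AKR1C3, 0.58 higher in replicate 2.

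The cells' identity was read from marker genes. VIM, an intermediate filament of mesenchymal cells, had 1190.76 and 1119.82 FPKM in KO, against 1161.55 and 1320.76 FPKM in WT, and CD44 lay at 103.86 to 114.08 FPKM. ESR1 and CDH1 were at most 0.03 FPKM in all libraries, as MDA-MB-231 is known to show, and ERBB2 lay at 8.55 to 11.44 FPKM. The leukocyte markers PTPRC and CD3E and the fibroblast gene COL1A2 were at 0 in all libraries. CD68, a lysosomal protein used as a macrophage marker, had 67.72 and 117.02 FPKM in KO, against 30.15 and 39.03 FPKM in WT, and so made up the whole sum of the 3 leukocyte markers. The summed endothelial markers (PECAM1, CDH5 and VWF) were 0.27 and 0.45 FPKM in KO, against 0.12 and 0.15 FPKM in WT. PECAM1 and VWF were higher in KO, whereas CDH5 was lower, at 0.01 and 0.01 FPKM, against 0.05 and 0.06 FPKM in WT. The part of CD68-bearing or endothelial cells in the AKR1 differences was not tested. AKR1C2 and AKR1C3 are also liver genes, and the summed hepatocyte markers (ALB and APOA1) were 0.02 and 0.02 FPKM in KO, against 0.09 and 0.04 FPKM in WT. COL1A1, another fibroblast gene, had 0.36 and 0.27 FPKM in KO, against 1.11 and 1.45 FPKM in WT, and the epithelial gene EPCAM had 0.34 and 0.05 FPKM in KO, against 1.08 and 1.15 FPKM in WT. FPKM summed to 528986 and 544650 in KO, against 504102 and 520527 in WT.

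Of 12 other aldo-keto reductase genes looked for, 3 were tested. In the limma fit 2 rose and 0 fell (all tested genes: 16.2% and 10.8%). The counts were the same at an unadjusted p under 0.05, a level at which the share of all tested genes was not counted. AKR1E2, which lies 90.2 kb before the AKR1C cluster, had 1.07 and 1.41 FPKM in KO, against 0.35 and 0.39 FPKM in WT, and rose by a log2 fold change of 0.71 ± 0.15 (limma adjusted p = 0.0129). Like AKR1C1 and AKR1B10, it passed the filter only through the KO libraries, which favours a rise. KCNAB2, a potassium-channel subunit of the same superfamily, had 10.97 and 12.08 FPKM in KO, against 6.69 and 8.10 FPKM in WT, and rose by 0.58 ± 0.15 (limma adjusted p = 0.029). AKR7A2, an aflatoxin aldehyde reductase, had 28.3 and 26.4 FPKM in KO, against 24.91 and 28.84 FPKM in WT, so its groups overlapped (limma adjusted p = 0.896, with a sign that turned when libraries were rescaled). The genes AKR7A3, AKR7L, AKR1C8P, AKR1D1, KCNAB1 and KCNAB3 stayed below the filter, at 0 to 0.94 FPKM. AKR1B15 and AKR1C4 were not analysed here. The call of AKR1E2 was lost without WT replicate 1 (adjusted p = 0.0524) and without KO replicate 2 (0.0716). That of KCNAB2 was lost without WT replicate 1 (0.137), KO replicate 1 (0.0764) or KO replicate 2 (0.147).

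The next comparison took the pathway that controls many AKR1 genes. NFE2L2, the gene of NRF2, had 34.5 and 44.37 FPKM in KO, against 18.01 and 12.81 FPKM in WT. Its RNA rose by 1.31 ± 0.19 (limma adjusted p = 0.00444), and the NRF2 protein was not measured. SQSTM1, whose product p62 binds KEAP1 and frees NRF2, had 411.4 and 435.31 FPKM in KO, against 93.44 and 120.59 FPKM in WT, and rose by 1.99 ± 0.14 (limma adjusted p = 0.000434). Both KO libraries held more than 3 times the WT level of SQSTM1. NFE2L3, a related factor, had 55.53 and 53.99 FPKM in KO, against 27.77 and 27.89 FPKM in WT, and rose by 0.95 ± 0.12 (limma adjusted p = 0.00244). KEAP1, the inhibitor, had 57.75 and 57.94 FPKM in KO, against 53.96 and 57.02 FPKM in WT, a difference of 0.06 ± 0.11 that did not pass the test and turned in sign when libraries were scaled to 1 total.

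Of the 10 regulators, all tested, 4 rose and 1 fell (all tested genes: 16.2% and 10.8%). Their median log2 fold change was 0.20, beside 0.07 over all tested genes. The fourth to rise was BACH1, a repressor that competes with NRF2, by 0.59 ± 0.18 (limma adjusted p = 0.0456). MAFK, a small MAF partner of both, fell by 0.51 on the log2 scale (limma adjusted p = 0.0232). The values of CUL3 (-0.15), NFE2L1 (0.25), MAFF (-0.25) and MAFG (0.15) did not pass the test. The call of BACH1 was lost when libraries were rescaled by either method (adjusted p = 0.0535 and 0.0558) and without WT replicate 1 (0.109), WT replicate 2 (0.136) or KO replicate 2 (0.252), and that of MAFK when any library was left out (0.0655 to 0.124).

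Of 30 listed NRF2 targets other than AKR1 genes, 27 were tested, 14 rose and 0 fell (all tested genes: 16.2% and 10.8%). Their median log2 fold change was 0.49. At an unadjusted p under 0.05 in the same limma fit, 15 rose and 0 fell. The share of all tested genes at that unadjusted level was not counted in any comparison here. The ferritin chains, which store iron, had the smallest p: FTH1 had 1885.56 and 2129.33 FPKM in KO, against 550.21 and 641.45 FPKM in WT, and rose by 1.75 ± 0.12 (limma adjusted p = 0.000403). FTL had 3017.31 and 3699.75 FPKM in KO, against 833.12 and 1043.95 FPKM in WT, and rose by 1.84 ± 0.14 (limma adjusted p = 0.000619). Iron also controls ferritin through its translation, which concerns the protein and was not measured here.

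The standard readouts of NRF2 activity gave smaller values. NQO1, a quinone reductase, had 125.14 and 113.54 FPKM in KO, against 60.06 and 79.31 FPKM in WT, and rose by 0.78 ± 0.15 (limma adjusted p = 0.0104). HMOX1, which degrades haem, had 15.34 and 13.86 FPKM in KO, against 8.32 and 10.93 FPKM in WT, and rose by 0.56 ± 0.16 (limma adjusted p = 0.0404). The glutathione synthesis genes GCLM and GCLC did not pass the test, at -0.05 ± 0.13 and -0.02 ± 0.14. TXNRD1, a thioredoxin reductase, had 203.7 and 287.06 FPKM in KO, against 164.48 and 180.41 FPKM in WT, and its 0.49 ± 0.16 missed the threshold (limma adjusted p = 0.0618) but passed without KO replicate 1 (0.0165). Without WT replicate 1 the calls of NQO1 (adjusted p = 0.0608) and HMOX1 (0.194) were lost, and that of HMOX1 also without KO replicate 1 (0.155), without KO replicate 2 (0.105) and under both rescalings (0.0558 and 0.0525).

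The 14 calls fell to 9 without WT replicate 1 and to 8 without KO replicate 2, and the median of the list to 0.29 without KO replicate 2. TALDO1, PIR, CBR3, ABCC3, FTH1 and FTL were among those called in each of these and the other alternatives that keep a filter on low values, and the first 4 of them are named after their values were seen. In KO, replicate 2 exceeded replicate 1 for 20 of the 27 targets, beside 52.2% of all tested genes. Without any filter on low values the fit called 525 genes in place of 3184, and 8 of the 58 list genes called across all fixed lists kept their call, namely SQSTM1, NFE2L3, FTH1, FTL, ABCC3, HSD17B8, HSD17B11 and ALDH7A1. No other called gene of the fixed lists kept its call without that filter.

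**Figure D3:**
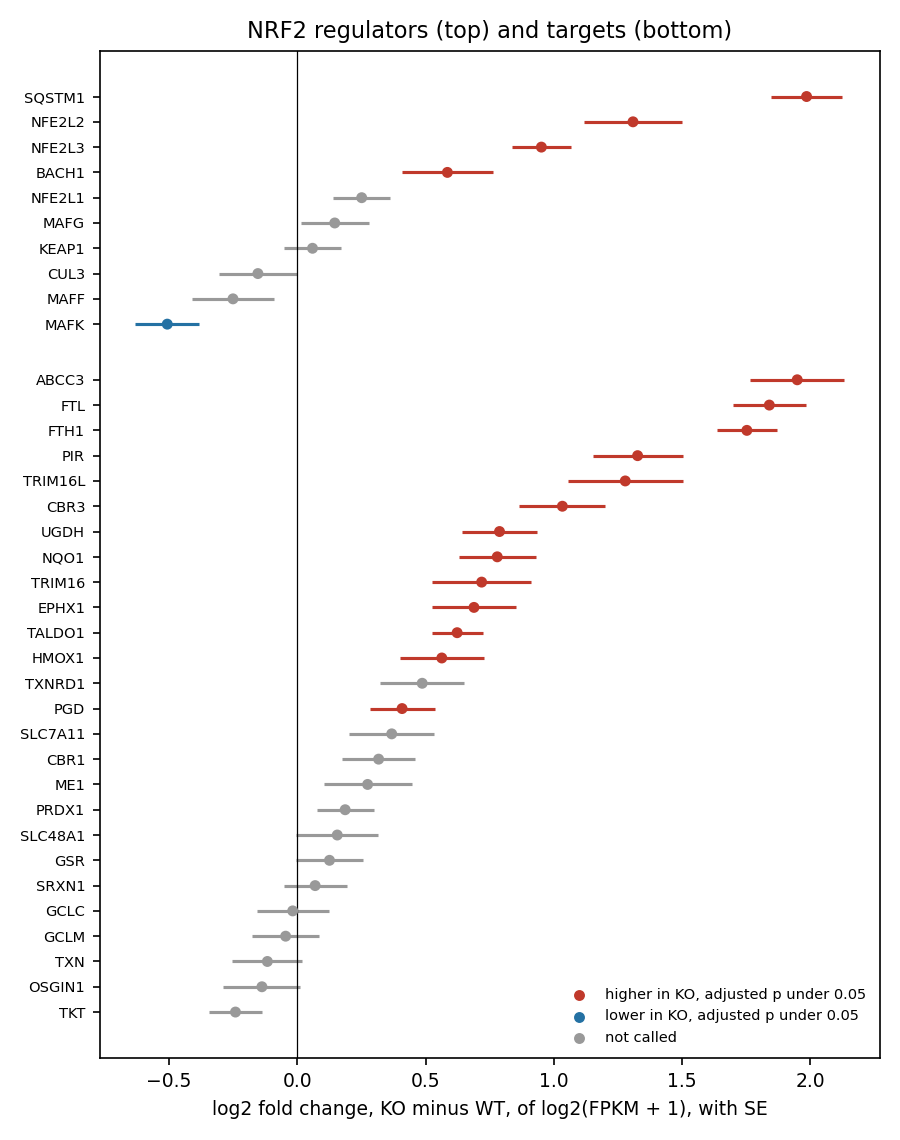
Log2 fold change, KO minus WT, of log2(FPKM + 1) with its SE for 10 NRF2 regulators (top) and 26 of the 27 tested NRF2 targets other than AKR1 genes (bottom), coloured by the limma call. SQSTM1, NFE2L2, FTL and FTH1 lie at 1.31 to 1.99, whereas KEAP1, GCLC and GCLM lie within 0.06 of 0.

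Other enzymes that make or use steroids are also in the expression table. Of those that make them, HSD3B1 was at 0 and CYP17A1 and CYP19A1 at most 0.02 FPKM in all libraries. CYP11A1 had 1.84 and 2.49 FPKM in KO, against 2.28 and 2.89 FPKM in WT, and did not pass the test (limma adjusted p = 0.457). Of 26 genes of steroid metabolism other than AKR1 genes, 13 were tested. Of these 9 rose and 0 fell (all tested genes: 16.2% and 10.8%), with a median of 0.64. At an unadjusted p under 0.05 in the limma fit, 10 rose and 1 fell, and the share of all tested genes at that level was not counted. HSD17B10, a mitochondrial enzyme at -0.30 ± 0.10 and 203.0 ± 9.21 FPKM in WT, passed as a fall under both rescalings (limma adjusted p = 0.0408 and 0.0254). HSD17B8, which oxidises oestradiol and serves fatty acid synthesis in mitochondria, had 24.45 and 18.41 FPKM in KO, against 5.45 and 6.7 FPKM in WT, and rose by 1.66 ± 0.18 (limma adjusted p = 0.00182). HSD3B7, an enzyme of bile acid synthesis, had 5.58 and 6.73 FPKM in KO, against 1.48 and 2.12 FPKM in WT, and rose by 1.36 ± 0.18 (limma adjusted p = 0.00312). Neither acts mainly on sex steroids.

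The other 7 genes that rose, named after their values were seen, were CYP1B1 (1.37), SRD5A3 (1.08), HSD17B11 (0.98), STS (0.94), HSD17B12 (0.64), HSD17B7 (0.58) and HSD17B6 (0.52). CYP1B1 hydroxylates oestrogens and STS frees steroids from their sulphates. HSD17B8, HSD3B7, CYP1B1, SRD5A3 and HSD17B11 were called in each alternative with a filter on low values that tested them, and the other 4 were not.

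SRD5A1, which makes dihydrotestosterone, differed by 0.33 ± 0.14 and HSD17B4, which inactivates oestradiol, by 0.28 ± 0.12, and neither passed the test (limma adjusted p = 0.113 and 0.128). Of the steroid receptors, NR3C1, the glucocorticoid receptor, had 17.91 and 17.45 FPKM in KO, against 11.5 and 10.11 FPKM in WT, and rose by 0.66 ± 0.14 (limma adjusted p = 0.0131). ESR1 was at most 0.01 FPKM in all libraries, and PGR was not analysed here. Only 5 of the 9 steroid calls were tested with a minimum of 5 FPKM, since the other 4 were too low, and 6 were left without WT replicate 2 or without KO replicate 2. NR3C1 lost its call without WT replicate 2 (adjusted p = 0.067), KO replicate 1 (0.0591) or KO replicate 2 (0.0601).

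AKR1C3 also acts on prostaglandins, and AKR1B1 makes prostaglandin F2α. Of 26 prostaglandin genes, 10 were tested, 2 rose and 1 fell (all tested genes: 16.2% and 10.8%), with a median of 0.10. PPARG, a nuclear receptor that binds products of prostaglandin D2, had 39.96 and 52.81 FPKM in KO, against 25.75 and 24.52 FPKM in WT, and rose by 0.85 ± 0.15 (limma adjusted p = 0.00882). PTGR1, a reductase of leukotrienes and prostaglandins and also on the carbonyl list, had 32.06 and 50.84 FPKM in KO, against 19.85 and 25.8 FPKM in WT, and rose by 0.81 ± 0.22 (limma adjusted p = 0.0334). PTGES2, a prostaglandin E synthase, had 50.03 and 52.07 FPKM in KO, against 66.79 and 71.82 FPKM in WT, and fell by 0.43 on the log2 scale (limma adjusted p = 0.0281). PTGS2, the inducible cyclooxygenase, was at most 0.06 FPKM in any library.

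PTGES, another prostaglandin E synthase, had 8.1 and 4.69 FPKM in KO, against 1.48 and 7.41 FPKM in WT. Its WT libraries lay apart and its groups overlapped (limma adjusted p = 0.357). It passed without WT replicate 2 (0.0175) and its sign turned without WT replicate 1. The call of PTGES2 was lost when any library was left out (0.0691 to 0.158) and that of PTGR1 without WT replicate 1 (0.155), WT replicate 2 (0.0502) or KO replicate 2 (0.149).

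Retinaldehyde is the preferred substrate of AKR1B10. Of 24 retinoid genes, 12 were tested, 1 rose and 3 fell (all tested genes: 16.2% and 10.8%), with a median of -0.01. CRABP2, which carries retinoic acid to its receptor, had 1.33 and 0.82 FPKM in KO, against 3.43 and 6.1 FPKM in WT, and fell by 1.45 on the log2 scale (limma adjusted p = 0.00646). RARA, a retinoic acid receptor, had 6.0 and 4.91 FPKM in KO, against 9.71 and 10.38 FPKM in WT, and fell by 0.78 on the log2 scale (limma adjusted p = 0.0115). RDH10, which makes retinaldehyde from retinol, rose by 0.58 ± 0.15 (limma adjusted p = 0.0281). ALDH1A3, which oxidises retinaldehyde to retinoic acid, had 2.52 and 2.13 FPKM in KO, against 0.99 and 1.84 FPKM in WT, and did not pass the test (limma adjusted p = 0.105). It passed without WT replicate 2 (0.0393). RARA lost its call without KO replicate 2 (0.072), and RDH10 when any library was left out (0.074 to 0.136).

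Other enzymes that clear carbonyls were split by direction. Of 29 genes of carbonyl and aldehyde metabolism, 24 were tested. Of these 8 rose and 3 fell (all tested genes: 16.2% and 10.8%), with a median of 0.30. ALDH3B1 had 18.07 and 18.77 FPKM in KO, against 5.45 and 8.31 FPKM in WT, and rose by 1.33 ± 0.19 (limma adjusted p = 0.00422). ALDH3A2, which like ALDH3B1 oxidises fatty aldehydes, had 36.81 and 26.82 FPKM in KO, against 10.98 and 14.17 FPKM in WT, and rose by 1.27 ± 0.19 (limma adjusted p = 0.0048). ALDH1B1, a mitochondrial acetaldehyde dehydrogenase, had 17.14 and 16.66 FPKM in KO, against 28.07 and 26.4 FPKM in WT, and fell by 0.66 on the log2 scale (limma adjusted p = 0.0101). ALDH18A1, an enzyme of proline synthesis, fell by 0.50 on the log2 scale (limma adjusted p = 0.017). The rises numbered 5 and the falls 0 without WT replicate 1, where ALDH1B1 was at an adjusted p of 0.062. ALDH18A1 lost its call without WT replicate 1 (0.0944), WT replicate 2 (0.0795) or KO replicate 2 (0.066).

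AKR1B1 and AKR1A1 feed the polyol and glucuronate routes, and sorbitol from AKR1B1 is an osmolyte. Of 16 genes of these routes and of the osmotic response, 15 were tested. Of these 3 rose and 2 fell (all tested genes: 16.2% and 10.8%), with a median of 0.14. SLC5A3, a transporter of the osmolyte myo-inositol, had 7.48 and 5.87 FPKM in KO, against 2.78 and 2.33 FPKM in WT, and rose by 1.11 ± 0.17 (limma adjusted p = 0.00509). UGDH, which makes UDP-glucuronate, had 13.4 and 15.81 FPKM in KO, against 7.86 and 8.16 FPKM in WT, and rose by 0.79 ± 0.15 (limma adjusted p = 0.00921). HK2, which phosphorylates glucose in competition with AKR1B1, fell by 0.82 on the log2 scale (limma adjusted p = 0.00861).

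SORD, which turns the sorbitol made by AKR1B1 into fructose, had 43.77 and 48.32 FPKM in KO, against 61.93 and 59.32 FPKM in WT. It fell by 0.39 on the log2 scale (limma adjusted p = 0.0442), opposite in sign to AKR1B1. NFAT5, the osmotic transcription factor known to act on AKR1B1, differed by 0.14 ± 0.17 and did not pass the test. The call of SORD was lost when any library was left out (0.0687 to 0.19) and without the mean-variance trend (0.0656). UGDH lost its call without KO replicate 2 (0.0631) and HK2 without WT replicate 1 (0.0531).

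AKR1 enzymes spend NADPH, and genes that supply it were counted last. Of 16 such genes, 14 were tested, 8 rose and 1 fell (all tested genes: 16.2% and 10.8%), with a median of 0.48. ME3, a mitochondrial malic enzyme, had 40.75 and 35.29 FPKM in KO, against 21.36 and 21.85 FPKM in WT, and rose by 0.78 ± 0.13 (limma adjusted p = 0.00624). PGLS, of the pentose phosphate pathway, had 77.84 and 79.35 FPKM in KO, against 40.71 and 50.39 FPKM in WT, and rose by 0.78 ± 0.13 (limma adjusted p = 0.00712). MTHFD2, a mitochondrial folate enzyme, had 30.54 and 21.88 FPKM in KO, against 52.27 and 57.03 FPKM in WT, and fell by 1.05 on the log2 scale (limma adjusted p = 0.00583). The 8 rises became 5 under either rescaling and 3 without WT replicate 1, WT replicate 2 or KO replicate 2.

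**Figure D4:**
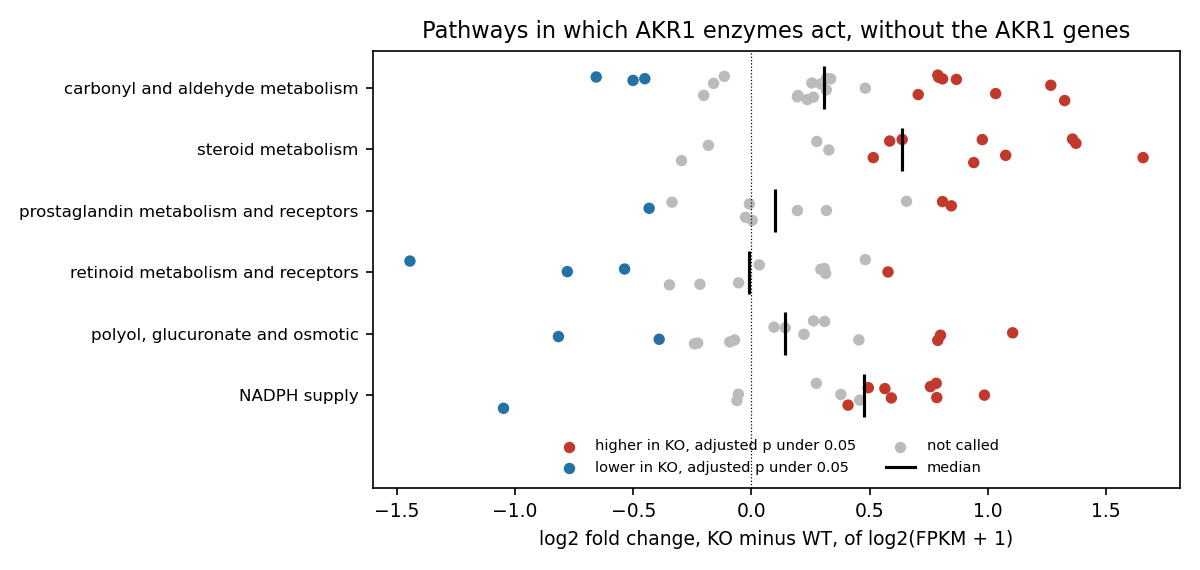
Log2 fold change, KO minus WT, of log2(FPKM + 1) for each tested gene of 6 pathways other than AKR1 genes, 1 point per gene coloured by the limma call, with a black line at each median. Steroid metabolism and NADPH supply have medians of 0.64 and 0.48, and retinoid genes a median of -0.01.

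Genes lying beside the AKR1 loci were then read. Over all tested genes the fit called 16.2% higher and 10.8% lower, with a median log2 fold change of 0.07. At an unadjusted p under 0.05 only falls were counted near the loci, without the share of all tested genes. Within 2 Mb of the AKR1C cluster 17 other genes were tested, of which 3 rose (AKR1E2, KLF6 and ASB13) and 0 fell in the limma fit, with a median of 0.14 and 1 fall at an unadjusted p under 0.05. On the far side of the cluster the nearest tested gene was NET1, 304.9 kb away, with 13.64 and 18.51 FPKM in KO, against 14.56 and 14.09 FPKM in WT (limma adjusted p = 0.554). Around the AKR1B genes 11 others were tested, of which 2 rose (SLC35B4 and CALD1) and 0 fell in the limma fit, with a median of 0.21. At an unadjusted p under 0.05, 0 fell as well. SLC35B4, a nucleotide-sugar transporter gene 122.0 kb before AKR1B1, rose by 0.60 ± 0.14 (limma adjusted p = 0.0213), and BPGM, 105.4 kb after AKR1B10, differed by 0.01 ± 0.16. Around AKR1A1, 48 genes were tested, of which 6 rose and 2 fell (6 fell at an unadjusted p under 0.05), with a median of 0.07. Its neighbours PRDX1, 27.9 kb before it, and NASP, 14 kb after it, differed by 0.19 ± 0.11 and -0.34 ± 0.11 and did not pass the test (limma adjusted p = 0.242 and 0.0515). NASP passed as a fall under both rescalings (adjusted p = 0.0313 and 0.0223). The call of SLC35B4 was lost when any library was left out (0.0608 to 0.094), and that of CALD1 without WT replicate 2 (0.137), KO replicate 1 (0.0853) or KO replicate 2 (0.164).

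**Figure D5:**
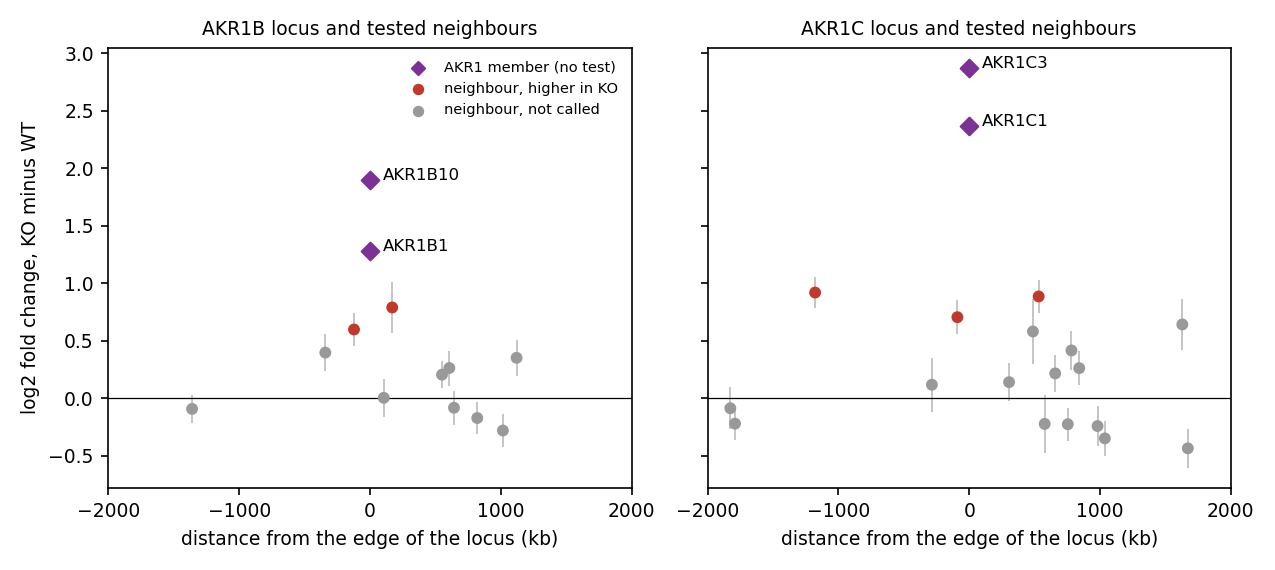
Log2 fold change, KO minus WT, with its SE for tested genes within 2 Mb of the AKR1B locus (left) and the AKR1C locus (right), against distance from the edge of the locus in kb. Diamonds at 0 are the AKR1 members that passed the filter (AKR1C2 did not), and the neighbours in red, 2 at AKR1B and 3 at AKR1C, are those called higher in KO.

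The genes whose profile over the 4 libraries was closest to each AKR1C gene were found by the root mean square difference of centred log2(FPKM + 1) values among 10337 genes. For AKR1C3 they were RFPL4AL1 (0.14) and RFPL4A (0.16), near-identical genes of the RFPL4 family, and ATP23 (0.25). RFPL4A had 27.42 and 31.33 FPKM in KO, against 2.54 and 3.16 FPKM in WT. For AKR1C1 they were TMEM265 (0.12), ASB9 (0.12) and the cytokine gene IL32 (0.20), which had 8.80 and 19.96 FPKM in KO, against 2.31 and 2.73 FPKM in WT. For AKR1C2, whose own range on this scale is small, they were NRAV, ZNF311 and FUT11 (0.02 each). Over 4 libraries in 2 groups many genes fit a profile of this kind, so the names only describe likeness.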

How the data were processed

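Per the file headers, the deposited table holds 1 FPKM value for each gene in each library. The submitters' processing notes name HISAT, StringTie, Cufflinks and GATK with hg38. The sources used here give neither their roles nor their versions. Trizol RNA was prepared with a TruSeq RNA kit, per the labels' protocols. Depth is unknown, so no counting interval is given. Of 20804 genes, 19694 identifiers matched the RefSeq table, and 11 symbols turned into dates were restored.

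From the deposited FPKM, log2(FPKM + 1) was computed and genes that reached 1 FPKM in 2 or more libraries were tested together, without scaling, with limma 3.58.1 (R 4.3.3, mean-variance trend, Benjamini-Hochberg, adjusted p under 0.05, two-sided). The fit was tested on simulated data. The noise model of that test was revised, and recovery of small changes depended on it. Python 3.11.15, pandas 2.3.3 and Biopython 1.88 served for tables and sequences. Alternatives were a pseudocount of 0.1, no filter, a minimum of 5 FPKM, 2 scalings, no trend, a replicate block and each library left out.

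Members and lists were chosen with earlier results of these data known, and lists share genes. Named were all members, aldo-keto reductases and NRF2 regulators, 2 rising and 2 falling genes with the smallest p per other list, preset receptor and rate-limiting genes, nearest tested neighbours and the 3 likest genes per AKR1C member. NFAT5, GCLC, HSD17B10, HSD3B1, CYP17A1, CYP19A1, CYP11A1, TKT and neighbours that are not the nearest were named after their values were seen. Promoters were to be printed only with a motif match; this was relaxed. Some genes that the lists hold are not reported here by name.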

Additional observations from a re-analysis of the deposited data

How the results depend on the processing

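With 2 libraries per group the count of calls moved with the setting. The log2 fold changes of all members kept their sign in every setting. Leaving out a library could not turn a sign, since no member's groups overlapped. Leaving out each library in turn gave 1402 to 1902 changed genes (845 to 1183 higher, 509 to 824 lower), against 3184 (1906 and 1278) with all 4. For the fixed lists together it gave 31 to 41 changed genes (27 to 36 higher, 3 to 6 lower), against 58 (47 and 11), and for NRF2 targets 8 to 13, against 14. Without a filter on low values 525 genes changed (290 higher, 235 lower), with 9 list genes (9 higher, 0 lower), 3 NRF2 targets and 2 steroid genes. Of these 9, 1 is a prostaglandin gene that was not called with the filter. The cause of the smaller counts was not tested. A minimum of 5 FPKM left 5 steroid genes called, because 4 were too low to be tested. Scaling by the median of ratios gave 3122 changed genes, 52.3% of them higher, and scaling to 1 total gave 3252, 49.9% higher, against 59.9% unscaled. Under both scalings 1 steroid gene (HSD17B10) fell, and under the second 1 NRF2 target (TKT) fell and AKR1A1 and AKR1B1 stood at 0.58 and 1.21. A pseudocount of 0.1 gave 4.40 for AKR1B10, 3.77 for AKR1C1, 2.20 for AKR1C2, 3.34 for AKR1C3 and 3.46 for the AKR1C sum, since a smaller pseudocount shrinks low values less.

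Replicate numbers shared by the groups did not pair the libraries: the deviations of same-numbered libraries correlated at -0.18 across 11786 genes. With the number as a replicate block 2864 genes changed. Among named genes, BACH1, HMOX1 and SORD (limma adjusted p = 0.0534, 0.052 and 0.0739) then missed the threshold, and TXNRD1 (0.0168) passed it. A crossed pairing, chosen after seeing the data, gave 4170 changed genes (2515 higher and 1655 lower). FPKM without counts leaves the precision of low genes, such as AKR1C2 and AKR1B10 in WT, unknown.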

Other observations

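Glutathione S-transferases, which couple electrophiles to glutathione and are detoxifying enzymes like the AKR1 family, were read as a family after values of these data had been seen, so the count is a description. Of 17 listed genes with such symbols, 14 were tested. In the limma fit 10 rose and 0 fell (all tested genes: 16.2% and 10.8%), with a median log2 fold change of 0.64. At an unadjusted p under 0.05, 12 rose and 0 fell, and the share of all tested genes at that level was not counted. MGST3, a microsomal member, had 44.05 and 49.75 FPKM in KO, against 14.32 and 16.48 FPKM in WT, and rose by 1.55 ± 0.14 (limma adjusted p = 0.00098). GSTK1, a mitochondrial and peroxisomal member, had 46.69 and 61.23 FPKM in KO, against 23.81 and 25.99 FPKM in WT, and rose by 1.07 ± 0.15 (limma adjusted p = 0.00422). GSTP1, the most abundant, had 359.67 and 354.55 FPKM in KO, against 264.66 and 343.63 FPKM in WT, and did not pass the test (limma adjusted p = 0.213). Without WT replicate 1 or without KO replicate 2, 6 rose, and without a filter on low values 2 rose. Several genes of this family are near-identical copies. Aldehyde dehydrogenase and UDP-glucuronosyltransferase families were also tried by symbol and are not counted here. Aldehyde dehydrogenases on the carbonyl list went both ways in the limma fit: ALDH3B1 and ALDH3A2 rose, whereas ALDH1B1 and ALDH18A1 fell.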
